A study of Rattus norvegicus with 18 samples.

Results

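DNA methylation of lesioned and control striata was compared in the rats that received L-DOPA with Riluzole (L-DOPA + R). These were 6 of the 18 striata, and 3 of the 9 rats, of a study that used reduced representation bisulfite sequencing (RRBS). Members were chosen by label alone: the 3 lesioned side and the 3 control side striata of this treatment, paired by the replicate number, which was taken to name the rat. All rats were juvenile male Wistar rats whose left medial forebrain bundle had been injected with 6-hydroxydopamine (6-OHDA), a toxin of dopamine neurons, at post-natal day (PND) 21. The L-DOPA + R rats then received L-DOPA with benserazide, which spares L-DOPA for the brain, and Riluzole from PND 35 to 49 and a final time at PND 53, when the striata were collected. The 3 rats treated with L-DOPA and benserazide alone and the 3 untreated rats (UNT, saline) carried the same lesion and serve here only to show where the L-DOPA + R rats differed. The control striatum was the uninjected side of the same brain, so it had received the same systemic drugs, and sides of 1 rat are not independent. RRBS reads no expression, so neither the tissue nor the extent of the lesion could be checked against marker genes.

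The striatum receives dopamine from the midbrain and glutamate from the cortex and thalamus, and its projection neurons respond to dopamine through cAMP. Loss of the dopamine input followed by L-DOPA is the classic setting of L-DOPA-induced dyskinesia, and Riluzole is known to lower glutamate release and to block sodium channels. DNA methylation in the brain sits mainly on the cytosine of CpG dinucleotides. CpG islands at promoters are mostly unmethylated, gene bodies and repeats are mostly methylated, and maintenance methylation usually keeps both strands of a CpG alike.

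In the 6 striata, 397652 CpGs were present with 10 or more reads on at least 1 strand in every striatum. Of these CpGs, 3 or more fell into each of 49919 fixed windows of 1 kb, whose reads were summed. A read that covered several CpGs of a window was counted once for each, so window counts are CpG calls and not separate reads. The model takes these calls as independent. The striata held 19383285 to 25846139 cytosine calls each, the median CpG held 25 reads per striatum and the median window 124 reads. In the spiked control DNA of these libraries, 98.2 to 98.7% of calls on methylated and 0.429 to 0.563% of calls on unmethylated sequence were read as methylated. Here and throughout, a difference is lesioned minus control in percentage points from summed reads unless it is given per rat, q is the p-value of a chi-square test with overdispersion correction after Benjamini-Hochberg adjustment over all CpGs or all windows, and a feature is called at q under 0.01.

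Methylation averaged over all CpGs, each with equal weight, differed by less than the spread between rats. It was 41.9, 42.5 and 43.4% in the control striata of rats 1, 2 and 3 and 43.2, 42.1 and 43.3% in their lesioned striata. The lesioned side was above the control side in rat 1 and slightly below it in rats 2 and 3, and the ranges overlapped. The mean difference over the 3 rats was 0.254 ± 0.879 points (SD, exact permutation test within rats, two-sided p = 1, where 3 rats cannot give a p below 0.25). From summed reads, in which deeply read CpGs weigh more, the difference was 1.94 points. Rat 1 decided the sign of the mean, since the mean over rats 2 and 3 alone was -0.250 points. The 182082 CpGs under 20% methylation, 45.8% of all, differed by 0.0633 points (exact p = 0.75), and the 127064 over 80% by 0.141 points (exact p = 1). The 88506 CpGs of intermediate methylation varied most between rats, with differences of 3.93, -1.15 and -0.356 points in rats 1, 2 and 3 (mean 0.807 ± 2.74 points, exact p = 1). On chromosome X, 2540 CpGs differed by 0.487 ± 0.624 points (exact p = 0.5). In bulk tissue such as this, a change within cells and a change in the share of a cell type cannot be told apart.

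Single CpGs differed more than their average, without a common direction. The difference lay between -12.3 and 13.7 points for 95% of CpGs, with a median absolute value of 2.26 points, and reached 10 points at 37865 CpGs (9.52%) and 20 points at 4291 (1.08%). The side difference had the same direction in all 3 rats at 54622 CpGs (13.7%), and the 3 lesioned and 3 control striata did not overlap at 23522 (5.92%). Windows varied less, from -7.62 to 9.05 points for 95% of them, and 59 windows (0.118%) reached 20 points. The sides did not overlap in 4505 windows (9.02%).

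The test called 7 CpGs (0.00176% of all tested) and 38 windows (0.0761%), of which 26 windows were higher (0.0521%) and 12 lower (0.024%) on the lesioned side. This split turned without rat 1, when 21 windows were higher and 36 lower. An unadjusted p under 0.05 was reached by 25006 CpGs (6.29%) and 3850 windows (7.71%). With the rat as a block, 32 CpGs (0.00805%) and 78 windows (0.156%) were called, among them 6 of the 7 CpGs and 33 of the 38 windows. The calls rest on the chi-square reference for the statistic, which takes no account of how few striata estimate the spread. Referring the same statistic to an F distribution called 0 CpGs and 0 windows (unadjusted p under 0.05 at 4116 CpGs and 895 windows). limma on log ratios of methylated to unmethylated reads also called 0 CpGs and 0 windows (unadjusted p under 0.05 at 24363 CpGs and 2162 windows, smallest adjusted p 0.759 and 0.977), and with the rat as a block again 0 of both (22723 CpGs and 2246 windows, smallest adjusted p 0.871 and 0.372).

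**Figure D1:**
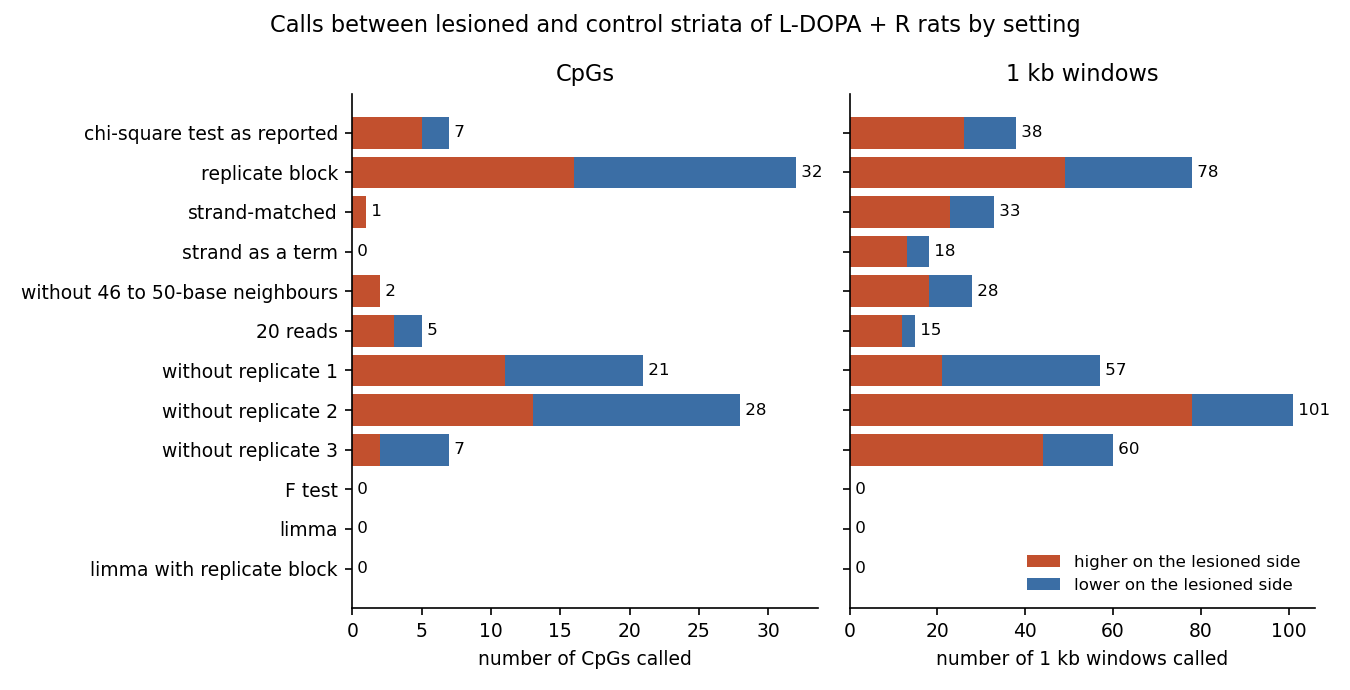
Number of CpGs (left) and of 1 kb windows (right) called between the lesioned and control striata of L-DOPA + R rats (x axis) under each setting (y axis), split into features higher (orange) and lower (blue) on the lesioned side. The chi-square test called 7 CpGs and 38 windows, the F test and limma called 0 of both, and leaving out 1 rat gave between 57 and 101 windows.

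The 38 called windows held 207 CpGs, a median of 5 per window, and 198 of these CpGs (95.7%) differed in the direction of their window. A window sums these same CpGs, which can share reads, so this share is not independent of the call. The same holds for the counts of CpGs given for single windows below, and no share over all windows was taken. The median absolute difference of the called windows was 14.1 points, from 1.83 to 25.3 points. The windows were picked by this difference, and the sides did not overlap in any of the 38, where 9.02% of all windows did not overlap. Mean methylation lay between 20 and 80% in 21 of them (55.3%), against 26.8% of all windows, in 10 of the 12 lower windows and in 11 of the 26 higher ones. The reads of a called window ranged from 30 to 2853 per striatum. In 25 of the 38 (65.8%, against 30.3% of all windows) the spread between striata was no larger than read sampling alone gives, so that no overdispersion entered their p-value.

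The window of smallest p, chr14:103317001-103318000 (rn6, 7 CpGs), was weakly methylated and higher on the lesioned side. It was methylated at 8.65, 10.1 and 8.46% in the control striata of rats 1, 2 and 3 and at 15.8, 20.5 and 23.1% in the lesioned striata. Every lesioned striatum lay above every control striatum, by a total of 11.2 points (control 9.06 ± 0.881%, lesioned 19.8 ± 3.67%, SD, n = 3 each; q = 4.26e-06), and all 7 CpGs were higher. On 183 to 386 CpG calls, the 95% Wilson half-widths were 2.98 to 5.28 points. These cover counting error only and take the calls as independent. The 7 CpGs lie between bases 103317090 and 103317124, so 1 read can give several calls. RRBS reads are also PCR copies without molecular identifiers.

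Pde10a, the phosphodiesterase of striatal projection neurons that breaks down cAMP and cGMP, held the only called window with a position assigned to a gene in the annotation used. In chr1:52448001-52449000 (5 CpGs, Pde10a intron), methylation was 47.6, 40.9 and 40.2% in the control and 63.9, 57.1 and 63.8% in the lesioned striata. The lesioned side was higher in each rat and the sides did not overlap (control 42.9 ± 4.06%, lesioned 61.6 ± 3.86%, n = 3 each; difference 18.3 points, q = 0.000308, with the rat as a block 4.45e-09). This window ranked 1 of all windows in limma (unadjusted p = 5.18e-05, adjusted p = 0.977), and with the rat as a block also ranked 1 (unadjusted p = 7.46e-06, adjusted p = 0.372). Without rat 3 its q was 0.12. The difference came from the first 3 CpGs, at +30.4, +30.1 and +25.4 points, while the last 2 differed by 10.8 and -4.06 points. The first 3 had nearly equal read counts in each striatum and are likely covered by the same reads, so they are not 3 separate observations.

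Another cluster of 8 CpGs, about 6 kb further, chr1:52454001-52455000, was methylated at 19, 31.7 and 46.7% in the control and 38.0, 47.1 and 60.8% in the lesioned striata. The sides overlapped across rats, but within each rat the lesioned side was higher (16.5 points, q = 0.798, with the rat as a block 3.77e-06). It was not called on matched strands (q = 0.798), with strand as a term (q = 0.579) or by limma with the rat as a block (adjusted p = 0.403). The CpGs from chr1:52454664 to chr1:52454708 are close enough to be covered by the same reads. Over the 131 kb between the outermost listed positions of Pde10a, 39 CpGs were tested. Of these, 23 were higher and 16 lower on the lesioned side, with a median difference of 6.30 points against 0 over all CpGs. An unadjusted p under 0.05 was reached by 6 of the 39, all of them higher, against 6.29% of all CpGs. The stretch was looked at because it holds the called window, and 3 of the 6 were CpGs of that window, so neither this count nor the median is independent of the call. The CpGs with the most negative differences lay apart from both clusters.

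**Figure D2:**
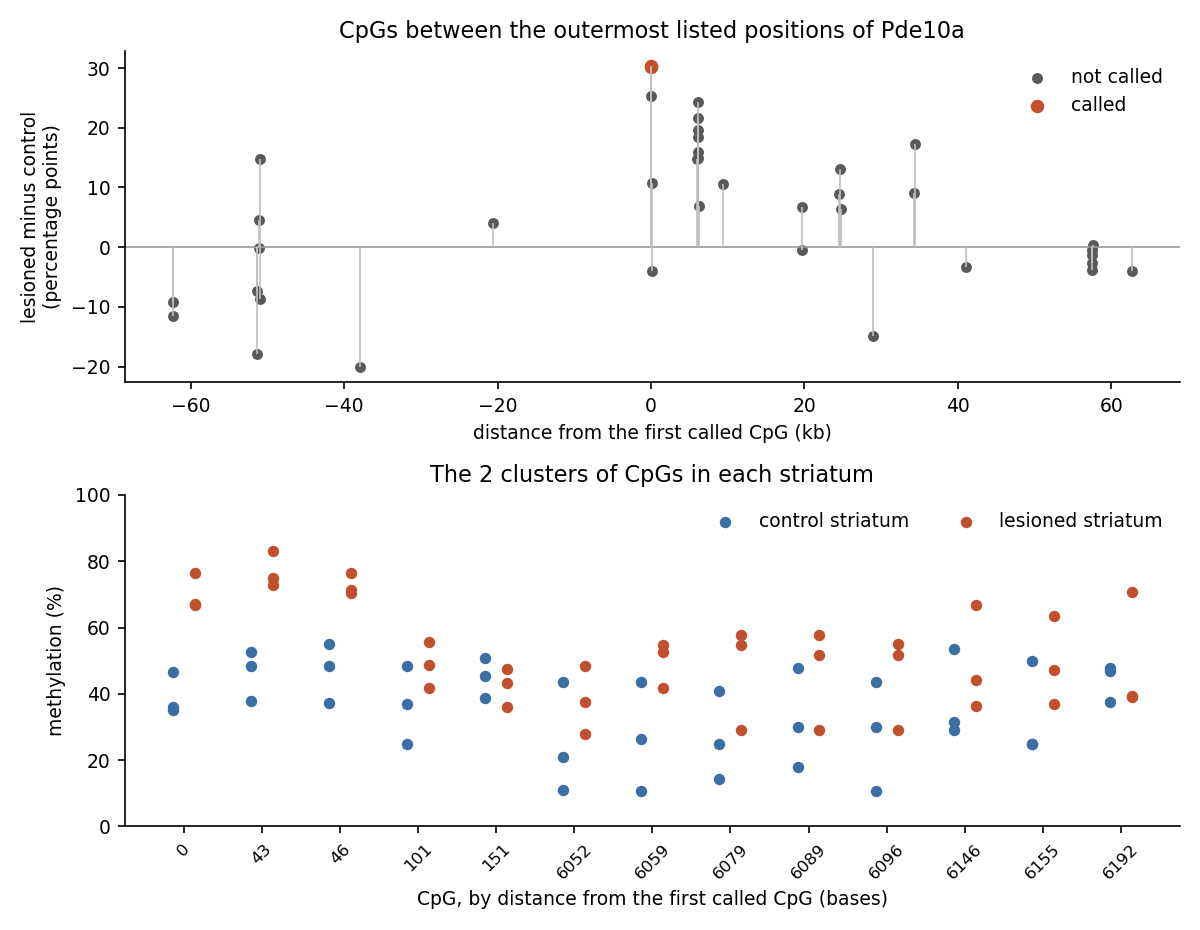
Upper plot: difference between lesioned and control striata of L-DOPA + R rats (y axis, percentage points) at the 39 CpGs between the outermost listed positions of Pde10a, by distance from the first called CpG (x axis, kb), called CpGs in orange. Lower plot: methylation (y axis, %) in each of the 3 control (blue) and 3 lesioned (orange) striata at the CpGs of both clusters near the called ones (x axis, distance in bases). At the first 3 CpGs every lesioned striatum lies above every control striatum.

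Among the other windows of smallest p, 4 were higher on the lesioned side. At chr10:107057001-107058000 (11 CpGs), control striata were methylated at 26.3, 24.1 and 27.7% and lesioned striata at 41.8, 37.1 and 39.3%. The sides were separate by a margin wider than the spread within either (13.3 points, q = 0.000147), and all 11 CpGs were higher. At chr3:165712001-165713000 (7 CpGs), whose end lies 758 bases before a listed exon position of the zinc finger gene Zfp64, methylation was 33.3, 33.0 and 29.2% in the control and 57.0, 45.7 and 48.9% in the lesioned striata. All 7 CpGs were higher, by 18.1 points together (q = 0.000308). The highly methylated chr1:85216001-85217000 (10 CpGs), 76045 bases before a listed intron position of Lrfn1, a synaptic adhesion protein, went from 86.0, 88.7 and 88.0% in the control to 94.8, 95.2 and 96.6% in the lesioned striata. This difference of 7.72 points (q = 0.000224) was shared by all 10 CpGs. At chr7:712001-713000 (12 CpGs) a difference of 1.83 points was called (q = 0.00112), from 3.47, 4.07 and 3.24% in the control to 5.49, 5.14 and 5.84% in the lesioned striata, on 1545 to 2853 reads. With the rat as a block this window was not called (q = 0.0217).

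The remaining 4 of the 10 windows of smallest p were lower on the lesioned side. At chr20:30444001-30445000 (5 CpGs), 90398 bases after a listed intron position of Unc5b, a netrin receptor, methylation was 88.5, 88.5 and 87.0% in the control and 63.5, 73.4 and 72.2% in the lesioned striata (difference -16.9 points, q = 8.76e-05). At chr1:125952001-125953000 (8 CpGs) it was 94.4, 95.2 and 91.9% against 79.8, 83.6 and 83.4% (difference -11.5 points, q = 8.76e-05). Both windows were nearly fully methylated on the control side, and the lesioned striata lay below the whole control range. At chr2:205925001-205926000 (5 CpGs) it was 80.4, 87.3 and 84.6% in the control and 68.9, 72.0 and 69.5% in the lesioned striata (difference -13.9 points, q = 0.000339). At chr2:121599001-121600000 (4 CpGs) it was 25.3, 28.0 and 30.9% against 10.8, 12.3 and 17.4% (difference -14.3 points, q = 0.000339). The sides did not overlap in either of these windows.

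**Figure D3:**
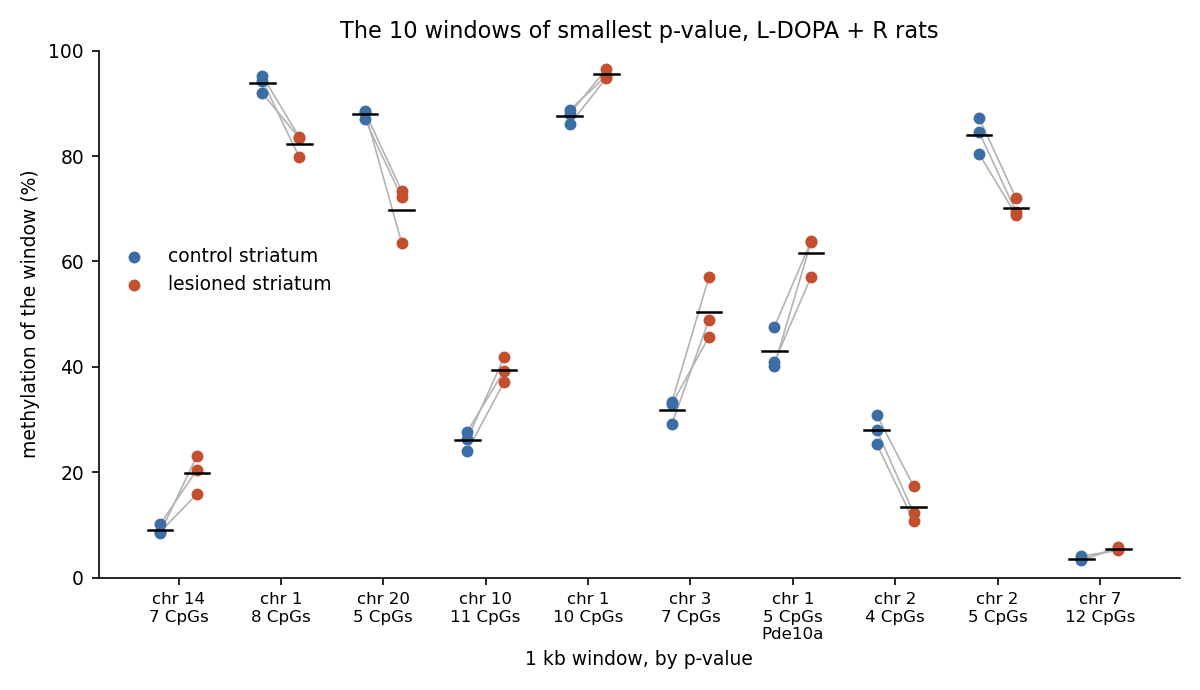
Methylation (y axis, %) of the 10 windows of smallest p-value (x axis, with chromosome and number of CpGs) in the control (blue) and lesioned (orange) striata of L-DOPA + R rats. Each point is a striatum, grey lines join the striata of a rat and black bars are means over 3 striata. In all 10 windows the sides are separate, with 6 windows higher and 4 lower on the lesioned side.

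The other 28 called windows had q between 0.00121 and 0.00917. Of the 38 windows, 8 lay within 100 kb of a listed gene position, Pde10a included, and the median distance to the nearest one was 693 kb, both from a list that was held only in part. Neighbouring windows did not always move together: chr6:7323001-7324000 was higher by 12.1 points and chr6:7349001-7350000, 26 kb away, lower by 11.6 points (q = 0.00732 for both). Neither call was firm: the former was lost without each rat (q from 0.013 to 0.255) and on matched strands (q = 0.0867) and with strand as a term (q = 0.0227), the latter without rat 2 or 3 (q = 0.326 and 0.0225), on matched strands (q = 0.0559) and with strand as a term (q = 0.57). Only 2 of the 38 windows, those at chr20:30444001 and chr10:107057001, were called whichever rat was left out (largest q 0.00541 and 0.00898). At a minimum of 20 reads the latter was not called (10.2 points, q = 0.112), and the former was not tested, having fewer than 3 CpGs. Leaving out rat 1, 2 or 3 kept 11, 11 and 13 of the 38.

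Besides Pde10a, 7 of the 10 windows of smallest p lost their call in at least 1 of these fits. Without rat 1, q was 0.0175 at chr1:125952001, 0.0114 at chr3:165712001 and 0.156 at chr7:712001. Without rat 2, q was 0.022 at chr14:103317001, 0.179 at chr2:121599001 and 0.0151 at chr2:205925001. Without rat 3, q was 0.0157 at chr1:85216001, 0.0615 at chr3:165712001, 0.11 at chr2:205925001 and 0.0496 at chr7:712001. With strand as a term in the model, q was 0.0841 at chr1:125952001, 0.405 at chr2:121599001, 0.282 at chr2:205925001 and 0.0363 at chr7:712001. On strands kept in all 6 striata, q was 0.0504 at chr1:125952001 and 0.0147 at chr3:165712001.

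The 7 called CpGs fell into distinct kinds once the strands were read apart, since a cytosine entered the merged value only on strands with 10 or more reads. The kept strands differed between the striata at 4 of the 7 (57.1%), against 92108 of all CpGs (23.2%). At chr1:144205888 merged methylation was 46.4, 38.2 and 47.6% in the control striata and 0, 0 and 0% in the lesioned striata (difference -43.4 points, q = 8.02e-05), on 11 to 34 reads. The forward strand was read at 6.25, 8.70 and 0% in the control and at 0% in all lesioned striata. The reverse strand, kept in the control striata alone, was read at 100% in all 3. On the strand that both sides shared, the difference was -6.00 points (unadjusted p = 0.0422).

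A neighbouring pair on chromosome 8, 49 bases apart, was called in opposite directions. At chr8:46205450 merged methylation was 34.6, 41.7 and 40.9% in the control and 84.6, 89.5 and 94.7% in the lesioned striata (50.9 points, q = 0.000146). Its forward strand, kept only in control striata, was at 0% in all 3, and on the shared reverse strand the control striata were at 81.8, 75.0 and 90.0%, with a side difference of 9.71 points (unadjusted p = 0.185). At chr8:46205401 the merged difference was -43.3 points (q = 0.00232), and on the shared reverse strand it was +3.23 points (8.33, 0 and 0% in the control and 0, 5 and 10.5% in the lesioned striata). At both CpGs the merged difference followed which strands had been kept.

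At chr17:6874264, 50 bases after a listed intron position of Ubqln1, a ubiquitin-binding protein that delivers proteins to the proteasome, merged methylation was 0% in the control and 41.9, 24.2 and 36.7% in the lesioned striata (34.5 points, q = 0.00195). The forward strand was at 0, 0 and 0% in the control and 0, 0 and 4.17% in the lesioned striata. The reverse strand, kept on the lesioned side alone, was at 72.2, 44.4 and 68.0%. On the shared strand the side difference did not pass the test (unadjusted p = 0.255).

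The other 3 called CpGs were read on the forward strand in all 6 striata, so the same strand was compared. Of these, 2 lay in the Pde10a window. Their read counts were nearly equal in each striatum, so they are likely covered by the same reads and are not separate observations. At chr1:52448655 methylation was 52.5, 48.3 and 38.0% in the control and 83.0, 72.7 and 75.0% in the lesioned striata (q = 0.00232), and at chr1:52448612 it was 46.7, 35.1 and 36.2% against 76.6, 66.7 and 67.2% (q = 0.00347), on 42 to 61 reads. Every lesioned striatum was above every control striatum at both. At chr5:137272302 it was 16.7, 6.25 and 19.2% against 60, 64.3 and 50% (43.3 points, q = 0.00855), on 16 to 28 reads. Here too the sides were separate, but the CpGs within 100 bases differed by only -5.48 to 11.5 points, and its window was not called (q = 0.431). It was the 1 of the 7 CpGs not called with the rat as a block (q = 0.0177). All 3 CpGs compared on the same strand lost their call whichever rat was left out, with q from 0.05 to 0.151 at chr1:52448655, 0.05 to 0.205 at chr1:52448612 and 0.0382 to 0.226 at chr5:137272302. The calls that remained without rat 1 (2 of the 7) or rat 2 (4 of the 7) were CpGs whose kept strands differed, and without rat 3 none of the 7 was called.

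**Figure D4:**
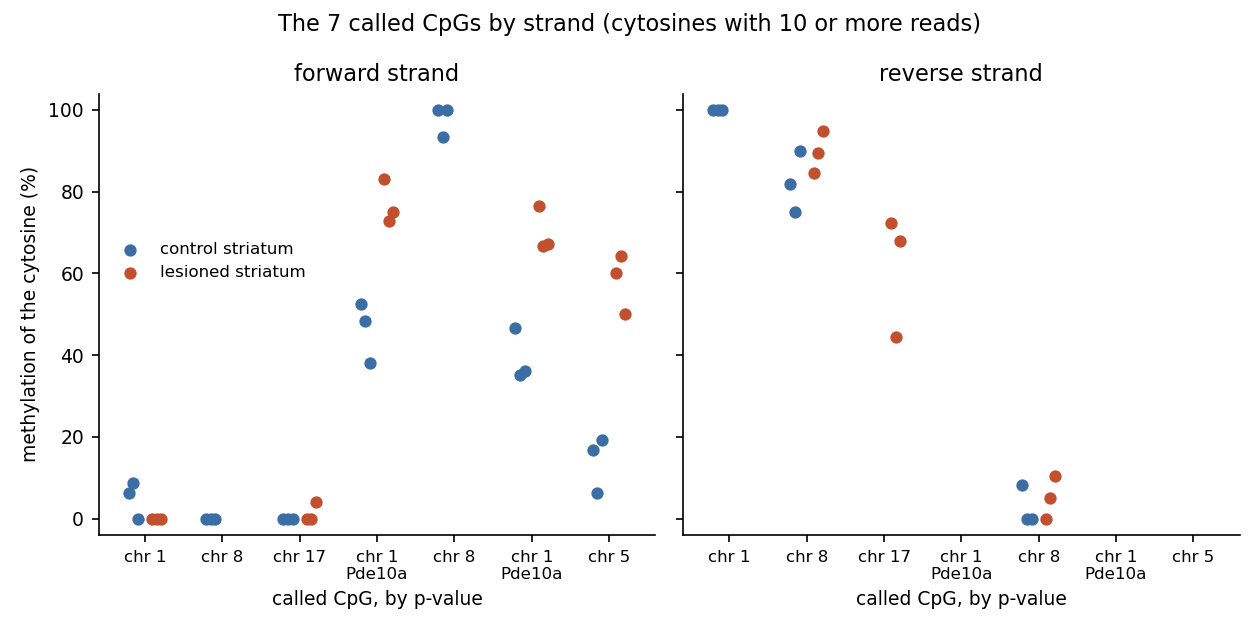
Methylation (y axis, %) of the 7 called CpGs (x axis, by p-value) on the forward (left) and reverse (right) strand in control (blue) and lesioned (orange) striata of L-DOPA + R rats. Each point is a striatum with 10 or more reads on that strand. At the CpGs on chromosomes 8 and 17 and the first on chromosome 1, a strand with values far from the other strand is present on 1 side only, while both Pde10a CpGs and that on chromosome 5 differ on the forward strand itself.

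When each striatum contributed only strands kept in all 6 striata, 382781 CpGs remained and 1 was called, chr1:52448655 in Pde10a (q = 0.00983). The other Pde10a CpG had q = 0.01, just over the threshold, and that on chromosome 5 q = 0.0192. With strand as a term in the model, 0 CpGs were called (25705 at an unadjusted p under 0.05). Windows depended less on the strands: strand-matched reads called 33 of 48701 windows, 31 of them among the 38, and the term for strand called 18, of which 16 were among the 38. The Pde10a window had a difference of 21.9 points on matched strands (q = 3.98e-06), and q = 0.0227 with the term.

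The replicate block added 26 CpGs to the calls, 20 of them with 1 direction in all 3 rats, and at 23 of the 26 (88.5%) the kept strands differed between striata. The 5 of smallest p with 1 direction were chr3:113448510 (48.7 points, blocked q = 5.13e-11), chr11:32142346 (-58.4 points, blocked q = 5.70e-10), chr1:174470649 (-41.6 points, blocked q = 6.98e-08), chr17:17906971 (34.8 points, blocked q = 9.06e-07) and chr17:22341073 (-32.8 points, blocked q = 1.26e-06). With strand as a term their differences were 4.84, 1.46, -2.53, 4.58 and -11.4 points. A second CpG 46 to 50 bases away, about the length of a read, was present for 23 of the 32 blocked calls (71.9%) and for 17.4% of all CpGs.

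The called windows were then read in the other treatments. They had been picked for their difference in L-DOPA + R rats, so a smaller difference elsewhere follows from the choice and is given as a description. In UNT rats all 38 were measured: 20 had the direction of the L-DOPA + R rats (52.6%, against 49.6% of all windows) and their median absolute difference was 2.01 points. In L-DOPA rats 32 were measured: 21 had the same direction (65.6%, against 50.6% of all windows), with a median of 2.5 points. The test called 0 of the 38 in UNT rats (2 had an unadjusted p under 0.05, of which 1 kept the direction), where it called 29 of 85028 windows in all (0.0341%). In L-DOPA rats it called 1 of the 32 (7 had an unadjusted p under 0.05, of which 4 kept the direction), and 24 of 53057 in all (0.0452%).

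The window called in both was chr2:205925001-205926000, whose call in L-DOPA + R rats was lost without rat 2 or rat 3 and with strand as a term, and which was lower on the lesioned side of L-DOPA rats as well. There it was methylated at 85.3, 75.9 and 84.3% in the control and 62.4, 60.8 and 48.3% in the lesioned striata (-25.5 points, q = 0.00114). In UNT rats it was 87.4, 84.3 and 81.8% against 79.3, 72.3 and 79.9% (-6.76 points, unadjusted p = 0.0122). The lesioned striata were thus below the control striata in all 3 treatments, and the interaction of side and treatment had q = 0.853 with UNT and 0.891 with L-DOPA.

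Whether the side difference itself depended on the treatment was tested by this interaction. It was called in 11 of 47559 windows between L-DOPA + R and UNT (3332, or 7.01%, at an unadjusted p under 0.05) and in 5 of 40315 between L-DOPA + R and L-DOPA (2641, or 6.55%). Of the 38 called windows, 5 were among the former and 2 among the latter. For these windows, too, the interaction is not independent of the choice. An F reference called 0 in both (1713 and 1321 at an unadjusted p under 0.05).

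In the Pde10a window UNT rats showed 63.2, 58.3 and 62.4% in the control and 57.5, 62.7 and 61.7% in the lesioned striata (-1.03 points, interaction q = 0.00746). All 6 of these values were close to the lesioned side of the L-DOPA + R rats and above all of their control striata. L-DOPA rats had 50.2, 46.4 and 51.0% against 52.6, 66.1 and 45.6% (4.65 points, interaction q = 0.702), so that neither the absence nor the presence of a difference from L-DOPA rats was shown. The window on chromosome 14 had the same order: UNT rats were at 19.3, 16.6 and 19.9% in the control and 16.6, 13.4 and 19.1% in the lesioned striata (-2.01 points, interaction q = 0.00248), again nearer to the lesioned side of the L-DOPA + R rats. L-DOPA rats were at 17.1, 13.9 and 17.5% against 16.5, 27.1 and 21.6% (4.39 points, interaction q = 0.561). Over all called windows, the L-DOPA + R side that lay farther from the UNT mean was the control side in 18 of 38 and the lesioned side in 20. Against the L-DOPA mean it was the control side in 20 of 32 and the lesioned side in 12.

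At chr2:121599001-121600000, whose side call was lost without rat 2 and with strand as a term, the interaction was called with both treatments. Its difference of -14.3 points stood against 2.02 points in UNT rats (interaction q = 0.00304) and 6.53 points in L-DOPA rats (interaction q = 0.000134). At chr20:30444001-30445000 the difference was -1.18 points in UNT and 3.26 points in L-DOPA rats (interaction q = 0.0887 and 0.0307). At chr1:125952001-125953000, the 4 CpGs measured in L-DOPA rats were lower on the lesioned side there too, at 97.5, 96.8 and 89.6% against 74.7, 80 and 87.2% (-14.9 points, unadjusted p = 0.00237, q = 0.29). For single CpGs, the interaction called 0 of 377976 with UNT, although all 7 called CpGs had an unadjusted p under 0.05, and 2 of 303723 with L-DOPA, where 3 of the 7 were measured and 0 of these called (2 at an unadjusted p under 0.05). At the Pde10a CpGs chr1:52448655 and chr1:52448612 the differences were 4.68 and -5.02 points in UNT rats and 1.11 and 0 points in L-DOPA rats. The merged value of chr8:46205401, whose difference in L-DOPA + R rats had the other direction on the shared strand, was in L-DOPA rats at 33.3, 45.5 and 37.9% in the control and 3.70, 0 and 4.17% in the lesioned striata (-34.8 points, interaction q = 1), and their strands were not read apart here.

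**Figure D5:**
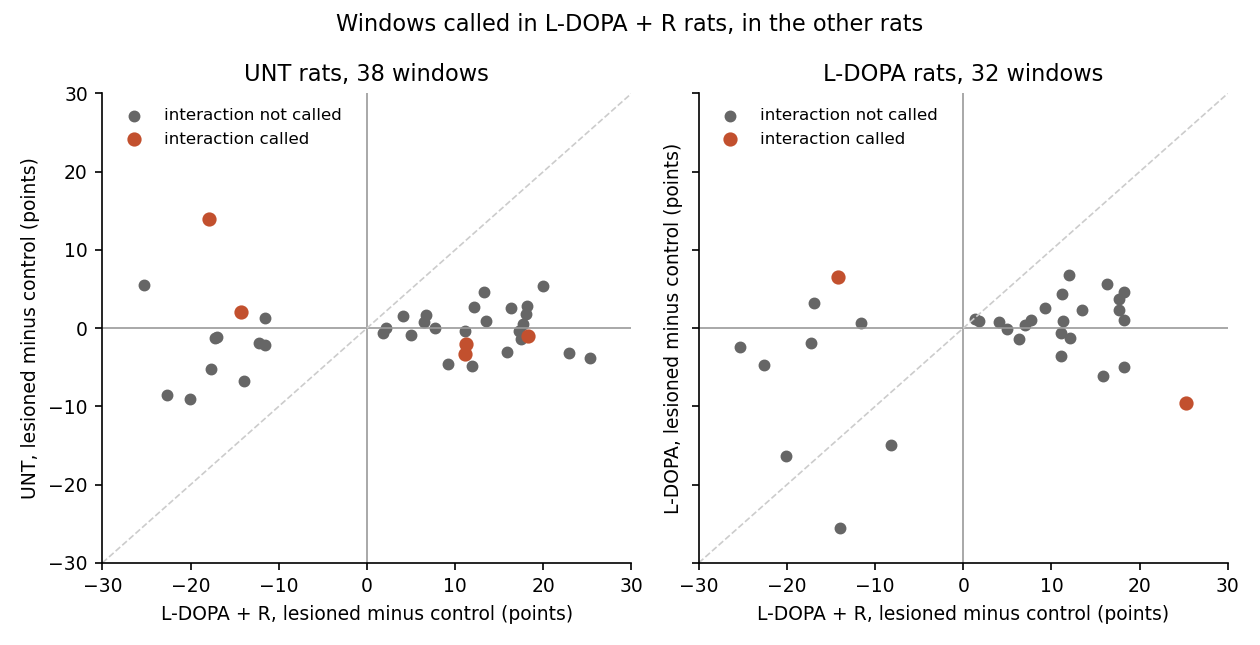
Lesioned minus control methylation (percentage points) of windows called in L-DOPA + R rats (x axis) against the same windows in UNT rats (left, 38 windows) and L-DOPA rats (right, 32 windows; y axes). Each point is a window, orange points have a called interaction of side and treatment and the dashed line marks equal differences. Most points lie near 0 on the y axis, and the interaction was called for 5 and for 2 of these windows.

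The positions that the study lists between treatments, used here only to attach gene names, gave 2057 sites measured in all 6 striata. Of these, 1028 were higher and 927 lower on the lesioned side, none was called, and 121 had an unadjusted p under 0.05 (5.88%, against 6.29% of all CpGs), 60 of them higher. Their median absolute difference was 3.93 points against 2.26 over all CpGs. Within intermediate methylation it was 5.31 points for listed sites and 6.22 for all CpGs. The share of listed sites at an unadjusted p under 0.05 was therefore no larger than the background.

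Genes of cAMP and dopamine signalling had 6 measured sites in 5 of the 19 genes of the list, 3 higher and 3 lower, between -4.01 and 10.8 points, and 0 of them reached an unadjusted p under 0.05. The highest was the listed Pde10a site chr1:52448713. Of the 22 glutamate receptors and regulators, 7 genes had 9 sites, 6 higher and 3 lower. An unadjusted p under 0.05 was reached by 3 of the 9, 1 of them higher, against 6.29% of all CpGs. With only 9 sites this share was not tested. Grik4, a kainate receptor subunit, had the lowest p: its exon site chr8:46947939 was at 30.8, 39.5 and 18.8% in the control and 6.67, 4.17 and 0% in the lesioned striata (-29.9 points, unadjusted p = 1.49e-06, q = 0.049). The sides were separate at this CpG, but the kept strands differed, and on matched strands the difference was -15.2 points (unadjusted p = 0.00397). Its window of 4 CpGs differed by -8.49 points (unadjusted p = 0.391), with overlapping sides. In Grm8, a presynaptic metabotropic glutamate receptor, chr4:55304947 was at 95.6, 92.3 and 85.9% against 76.1, 80 and 75.5% (-14.1 points, unadjusted p = 0.00108, q = 0.38). On matched strands it differed by -4.86 points (unadjusted p = 0.236), and with strand as a term by -11.3 points (unadjusted p = 0.0128). Its window of 3 CpGs differed by -9.99 points (unadjusted p = 0.00332, q = 0.247), with overlapping sides. In Cacng4, an auxiliary subunit of AMPA receptors, chr10:95987641 was at 12.5, 13 and 18.2% against 13.8, 28.2 and 20.7% (7.81 points, unadjusted p = 0.0457), with overlapping sides. The kept strands differed here too, and on matched strands the difference was 3.42 points (unadjusted p = 0.269). The Cacng4 window of 8 CpGs differed by 2.98 points (unadjusted p = 0.274).

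The measured listed sites of Grm4, another presynaptic glutamate receptor, had unadjusted p of 0.312, 0.377 and 0.502. The window around the last of them had the smallest p of the 8 windows at listed glutamate sites. This window, chr20:7056001-7057000, was methylated at 84.0, 80.2 and 85.5% in the control and 88.9, 88.8 and 90.1% in the lesioned striata. All lesioned striata were higher (6.34 points, unadjusted p = 4.17e-05), and the window was not called (q = 0.0302, limma adjusted p = 0.977). The calcium channel subunit gene Cacna1a had a site at 6.70 points and no site of the 2 voltage-gated channel genes measured reached an unadjusted p under 0.05. Of 9 measured genes of synapse and spine organisation, 10 sites differed by -15.3 to 11.2 points, 6 higher and 4 lower, and 0 reached an unadjusted p under 0.05. The extremes were Reln, the secreted glycoprotein reelin, whose kept strands differed at that site (-15.3 points), and Dab1, the adaptor of reelin signalling (11.2 points, unadjusted p = 0.0511). With strand as a term these differences were -4.29 and 7.07 points. In the methylation and imprinting list, 5 sites in 3 genes differed by 0 to 10 points, 4 higher and 0 lower. The 3 sites of the imprinted gene Zrsr1, which are 3 of these 4 higher sites, were at 10, 9.17 and 9.29 points. Their read counts were nearly equal in each striatum, so they likely share reads and are not separate observations. Their window was at 40.9, 27.1 and 33.3% in the control and 47.4, 35.4 and 42.8% in the lesioned striata, higher within each rat but overlapping between the sides (7.73 points, unadjusted p = 0.157).

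Within single rats, Fisher's exact test compares the reads of 2 libraries and not the conditions. It called 14, 9 and 13 CpGs in rats 1, 2 and 3 (36 in at least 1 rat) and none in more than 1 rat. Among windows it called 388 in rat 1 (353 higher and 35 lower on the lesioned side), 214 in rat 2 (79 higher and 135 lower) and 214 in rat 3 (108 higher and 106 lower), so that 788 different windows (1.58%) were called in at least 1 rat. Rat 1 thus leaned to higher and rat 2 to lower methylation on the lesioned side, as in their averages over all CpGs. In 14 windows 2 rats were called in the same direction, 12 of them higher, in another 14 windows 2 rats were called in opposite directions, and no window was called in all 3 rats.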

How the data were processed

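The authors extracted DNA from striata, prepared MspI libraries with the Diagenode Premium RRBS kit, pooled up to 6 samples before bisulfite conversion, sequenced single ends, trimmed with Trim Galore 0.4.0, aligned to rn6 with Bismark and read cytosines with methylKit. The deposited files give, per cytosine, a read count (coverage) and the percent of C and T, as the authors' processing left them. Methylated counts were recovered from percent and coverage. Cytosines with 10 or more reads were kept, strands merged, and CpGs present in all 6 striata tested singly and, as summed reads, in 1 kb windows of 3 or more CpGs. The test was a logistic model with overdispersion not under 1, chi-square test and Benjamini-Hochberg adjustment (Python 3.11.15, numpy 2.4.6, scipy 1.17.1). Both sides of a rat entered as separate samples. The rat block, F test, limma 3.58.1 (prior of 0.5 reads), strand-matched reads, strand as a term, other read minimums and other windows were alternatives. Scripts were tested on simulated data.

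Both striata of the same 3 rats were sampled per treatment, and the replicate number shared by the sides was taken as the rat, which the labels do not state. Deviations from the group mean correlated between same-numbered striata at 0.0314, 0.0464 and 0.104 over CpGs (rats 1, 2 and 3) and at 0.0486, 0.0697 and 0.156 over windows. Differently numbered striata correlated at -0.0789 to 0.0373 and at -0.129 to 0.0699, and control striatum 1 correlated more with lesioned striatum 2 than with its own number, so these values alone do not show the pairing.

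Named were all called CpGs, the 5 blocked calls of smallest p with 1 direction, the 10 windows of smallest p, and the listed sites of smallest p in each gene list. The member striata, lists and tests were chosen with earlier results of these data known. Gene names come only from 2969 rn6 positions of the study's list (640 rounded positions were left out, and 1 part of the list was shortened), so distances to listed genes are upper limits and a position outside them has no annotation here. Their values were not used. No sequence is printed, since no rn6 genome was used here.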

Additional observations from a re-analysis of the deposited data

Results flagged for a closer look

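The side difference differed between treatments by the interaction test in 16 comparisons of 15 windows, given here as the L-DOPA + R difference minus the other treatment's difference, in percentage points. Against UNT rats, the windows in which L-DOPA + R rats were higher on the lesioned side and UNT rats lower were chr1:52448001 in Pde10a (19.3), chr14:103317001 (13.2), chr8:39610001 (14.4) and chr4:145580001 (3.14). Those in which L-DOPA + R rats were lower and UNT rats higher were chr1:143825001 (-20.1), chr11:86488001 (-39.4), chr13:48579001 (-21.2), chr2:121599001 (-16.3), chr3:15431001 (-6.02), chr4:148192001 (-31.9) and chr5:36221001 (-8.05). Of these, chr4:148192001 had the smallest q (4.83e-06), with -17.9 points in L-DOPA + R and 14 points in UNT rats. Its side call in L-DOPA + R rats was lost whichever rat was left out (q from 0.0107 to 0.14), with strand as a term (q = 0.0471) and without CpGs that have a neighbour at 46 to 50 bases (q = 0.148).

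Against L-DOPA rats, the windows were chr2:45931001 (34.9), chr2:236761001 (11.1), chr10:106156001 (-14.0), chr2:121599001 (-20.8) and chr3:120051001 (-20.9). At chr2:45931001 the control striata of L-DOPA + R rats were at 60, 60.6 and 76.7% and the lesioned striata at 94.4, 88.9 and 93.3%, a difference of 25.3 points against -9.56 points in L-DOPA rats (interaction q = 1.68e-06). Its side call was lost without rat 1 or 2 (q = 0.181 and 0.0174). The window chr2:121599001 was called against both treatments. The F reference called none of the 16.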

How the results depend on the processing

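The CpG count of 7 was 60 without overdispersion correction, 32 with the replicate block, 2 without CpGs whose neighbour lies 46 to 50 bases away, 1 on matched strands, and 0 with each strand tested apart, with strand as a term, with the F test, with the block and F test (111 at an unadjusted p under 0.05) and with limma with or without the block. Leaving out 1 rat gave 7 to 28 CpGs, of which 2, 4 and 0 were among the 7 without replicates 1, 2 and 3. The 38 windows became 433 without overdispersion correction, 78 with the replicate block, 18 with strand as a term, 15 at 20 reads, and 0 with the F test, with the block and F test (81 at an unadjusted p under 0.05) and with limma with or without the block. Leaving out 1 rat gave 57 to 101 windows, and without replicate 1 the split of 26 higher and 12 lower became 21 higher and 36 lower. The causes of these moves were not tested. Counts stayed within 1.5 times for CpGs at 20 reads (5, of which 2 were among the 7), under a coverage ceiling (7), without 50-base neighbours (6) and on autosomes (7), and for windows on matched strands (33), shifted by 500 bases (39), of 2 kb (37) or without a minimum of reads (54, of which 16 were among the 38). The block, paired by the replicate number, moved both counts beyond 1.5 times.

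The mean difference of 0.254 points was -0.250 to 0.562 points when 1 rat was left out, reversed without replicate 1, and 1.94 points from summed reads. The 121 listed sites at an unadjusted p under 0.05 were 17 by the F test. The 11 interactions with UNT were 0 by the F test and 3 to 24 without 1 rat. The 5 with L-DOPA were 0 by the F test, 15 whichever rat was left out and 8 on matched strands. Reversed were chr8:46205401 (3.23 on the reverse strand and on matched strands, 2.70 with strand as a term), chr11:32142346 (1.46 with strand as a term) and the Cacna1b site chr3:1913994 (-3.14 to 2.73 when 1 rat was left out, reversed without replicate 2). Single CpGs rest on few reads, 11 to 61 per striatum at the 7 called CpGs, so that counting error alone reached 19.7 points at chr5:137272302. Matched strands, strand as a term, limma and the interaction's alternatives were added after seeing the data.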
